A study of Homo sapiens with 18 samples.

Results

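The comparison described here is that of HK-2 cells given TGF-beta1 together with C-peptide for 48 h (3 arrays) with HK-2 cells given TGF-beta1 alone for 48 h (3 arrays), 6 of the 18 arrays of the study, chosen by their titles. HK-2 is an immortalised line of human proximal tubule epithelium, and every value comes from this one line, used at passages 18 to 30 per the labels' protocols. TGF-beta1 was given at 2 ng/mL and C-peptide at 5 nM. The other arrays were of C-peptide alone for 48 h, no agent for 48 h, C-peptide alone for 18 h and no agent for 18 h, with 3 flasks and 3 arrays in each group. All flasks, controls included, had been held in medium with 5 mM glucose for 48 h and starved of serum overnight before the agents were added. The descriptions of replicates 2 and 3 of TGF-beta1 alone give the growth factor another final number, and they were kept with the group in their titles.

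C-peptide is the segment cut out of proinsulin when insulin is made, and it is secreted with insulin. It has been studied in kidney tubule cells as a ligand that acts on the sodium pump and on kinase signalling, and as a possible counter to TGF-beta1. TGF-beta1 binds the receptors TGFBR2 and TGFBR1, which phosphorylate SMAD proteins. In tubule epithelium it lowers junction genes such as CDH1 (E-cadherin) and raises matrix and mesenchymal genes, a programme linked to kidney fibrosis. The comparison asks what C-peptide added to that response.

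The promoters of 3 genes are shown because these are among the symbol-bearing genes with the smallest adjusted p whose call held in every fit that left out 1 of the 6 arrays. They were chosen after the values were seen. The choice left out the chromosome of GDF6. GDF6 was therefore neither shown nor searched, though its call also held and its adjusted p was below those of TAF1D and CAPZA1. Each run is the 150 bases before the gene's start in RefSeq (GRCh38.p14), on the strand of the gene, and capitals mark CCAAT and GGGCGG on either strand (ATTGG and CCGCCC on the other).
PTMA, chr2:231708375-231708524, plus strand: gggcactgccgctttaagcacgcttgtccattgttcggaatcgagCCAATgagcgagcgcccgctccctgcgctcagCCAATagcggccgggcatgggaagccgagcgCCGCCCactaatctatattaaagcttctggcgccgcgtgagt
TAF1D, chr11:93741496-93741645, minus strand: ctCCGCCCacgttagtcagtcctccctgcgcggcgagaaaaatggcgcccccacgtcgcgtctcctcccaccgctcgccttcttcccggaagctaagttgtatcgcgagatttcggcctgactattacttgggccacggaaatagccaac
CAPZA1, chr1:112619682-112619831, plus strand: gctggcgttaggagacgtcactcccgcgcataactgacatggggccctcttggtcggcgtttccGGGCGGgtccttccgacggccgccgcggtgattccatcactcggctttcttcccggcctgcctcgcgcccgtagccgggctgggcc
In the 250 bases before the start, each held 1 GGGCGG, PTMA held 2 CCAAT, CAPZA1 held 1 and TAF1D held 0. All lie in the bases shown but the CCAAT of CAPZA1. Among 35116 RefSeq promoters, 42.6% held GGGCGG and 32.0% held CCAAT within 250 bases before the start. The SMAD-box letters CAGACA and the CRE letters TGACGTCA, searched on both strands, were in none of the 3 windows of 250 bases and in 13.6% and 1.6% of all promoters.

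The 3 arrays with both agents had a mean intensity of 216.7 to 276.7 units, against 302.7 to 306.1 units on the 3 arrays with TGF-beta1 alone. Probes detected at a detection p under 0.01 numbered 15177 to 15574 with both agents and 14981 to 15185 with TGF-beta1 alone. Across 31728 probes detected on no array, the SD of the intensity was 3.98 to 5.08 units with both agents and 6.06 to 6.43 units with TGF-beta1 alone. Replicate flasks spread by a median log2 SD of 0.10 with both agents and 0.11 with TGF-beta1 alone. The array numbers in the deposited table put the arrays of both agents in one run with those of C-peptide alone for 48 h, and the arrays of TGF-beta1 alone in another run with the 48 h controls. At 48 h the effect of C-peptide and the run of array numbers therefore cannot be told apart in any comparison of arrays with and without C-peptide. Of the 31 proximal tubule genes listed, 12 were detected on at least 1 of the 6 arrays, and LRP2 (megalin), CUBN (cubilin), AQP1, SLC34A1 and ANPEP were detected on none. Of other cell types, 5 of 10 fibroblast, 1 of 8 endothelial, 2 of 8 leukocyte, 0 of 8 distal tubule and 1 of 5 podocyte markers were detected, COL1A2, COL3A1, VWF, PTPRC, UMOD and NPHS1 were not, and no marker was called in the comparison. The summed intensity of the fibroblast list was 2181.8 to 2492.8 units with both agents and 2122.7 to 2360.8 units with TGF-beta1 alone. The leukocyte list, with CD68 and CSF1R detected and CD14 and LYZ not, summed to 1197.7 to 1485.7 units with both agents and 1052.3 to 1116.3 units with TGF-beta1 alone, and the epithelial junction list to 26749.5 to 28036.3 units with both agents and 29053.6 to 31191.7 units with TGF-beta1 alone. The part of these shifts in the results was not tested.

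Among the genes that differed when C-peptide was added to TGF-beta1, and whose call held without each of the 6 arrays, were PTMA, TAF1D, CAPZA1 and GDF6, which were higher, and CHM, which was lower. GDF6 passed the filter on detection only through the arrays of both agents. Of 12464 genes tested, 187 (1.5%) were higher with both agents than with TGF-beta1 alone and 81 (0.65%) were lower at a Benjamini-Hochberg adjusted p under 0.05 in limma, the threshold at which a gene is called here, 2.15% in either direction. At an unadjusted p under 0.05 there were 2334 genes. The median log2 difference was 0.56 among genes called higher and -0.46 among genes called lower, and it was -0.01 over all genes. Of the called genes, 80 were at least 1.5-fold higher and 13 at least 1.5-fold lower, and 2 were at least 2-fold higher. Median scaling of the arrays in place of quantile normalization gave 73 higher and 2922 lower, with the median of all genes at -0.24, and median scaling over detected probes gave 408 higher and 93 lower. A fit on the 6 arrays alone called 477 higher and 378 lower, and array weights 697 higher and 739 lower, each with all 268 of the calls above. The number of calls depended on each array: it was 108, 53 and 92 without replicate 1, 2 or 3 of both agents, and 103, 52 and 172 without replicate 1, 2 or 3 of TGF-beta1 alone. In all 6 of these fits 33 genes kept their call, of which 32 were higher and 1 lower.

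**Figure D1:**
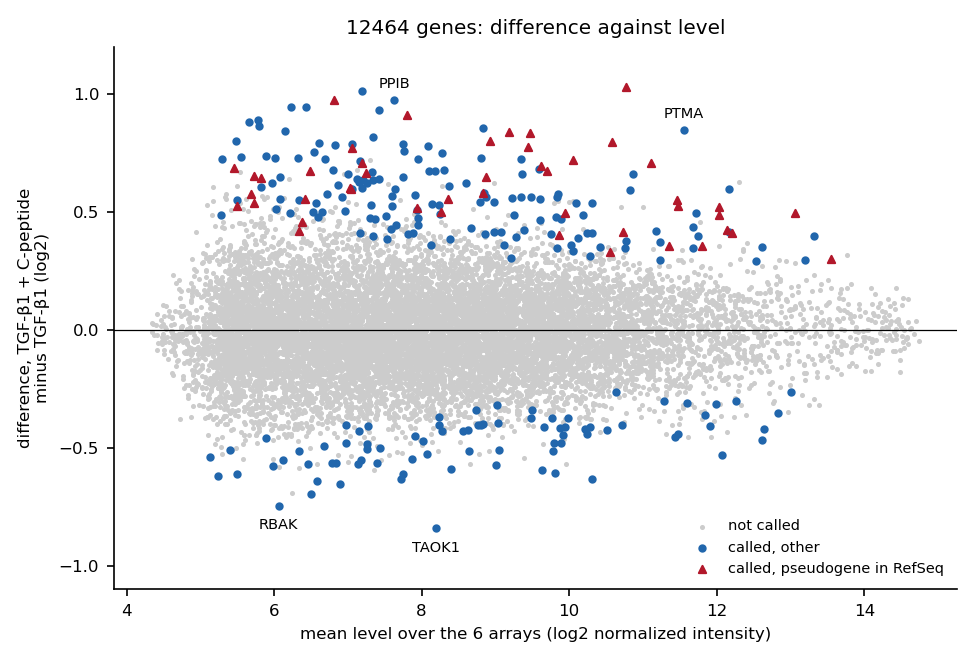
Each point is 1 of 12464 genes. The x axis is the mean log2 normalized intensity over the 6 arrays and the y axis the log2 difference, both agents minus TGF-beta1 alone. Grey points were not called, blue points were called, and red triangles are called RefSeq pseudogenes, all 46 of which lie above 0.

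Among the 14 genes with a proper symbol and the largest positive differences, the one with the smallest adjusted p was PTMA, which encodes prothymosin alpha, an acidic nuclear protein of proliferating cells. Its log2 level was 11.90, 11.96 and 12.07 with both agents, against 11.08, 11.01 and 11.30 with TGF-beta1 alone. The groups lay apart, and the difference was 0.85 ± 0.08 (SE, n = 3 each, limma adjusted p = 3.19e-05). CAPZA1, a subunit of the protein that caps actin filaments, had log2 levels of 9.72, 9.62 and 9.77 with both agents, against 8.85, 8.92 and 9.16 with TGF-beta1 alone. It rose by 0.73 ± 0.11 (SE, adjusted p = 0.0024). TAF1D, a subunit of the factor that brings RNA polymerase I to ribosomal DNA, had levels of 7.40, 7.58 and 7.35 with both agents and 6.67, 6.62 and 6.69 with TGF-beta1 alone. It rose by 0.79 ± 0.11 (SE, adjusted p = 0.00116), but a second TAF1D probe differed by 0.02. The promoters of these 3 genes are those printed above.

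TAF9, a TFIID subunit, rose by 0.75, and its second probe differed by 0.59. C1D, a cofactor of the nuclear exosome, rose by 0.73, and DNTTIP2, a nucleolar protein, by 0.72. GPN3, a GTPase needed for import of RNA polymerase II, and RANGRF, a regulator of the Ran GTPase, were not detected on any array of TGF-beta1 alone. Here a fold is a bound, set against the lowest detected signal on those arrays: with an adjusted p of 0.0139, GPN3 was at least 1.36-fold higher, and with one of 0.0255, RANGRF was at least 1.32-fold higher. TMEM128, which encodes a membrane protein, rose by 0.67 and kept its call without each array. PLAGL1, an imprinted zinc finger gene, rose by 0.68 on the probe used, but its other probe differed by -0.41, so its direction depends on the probe.

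PPIB, cyclophilin B, a proline isomerase of the endoplasmic reticulum (ER), had log2 levels of 7.85, 8.24 and 8.26 with both agents and 7.19, 7.01 and 7.23 with TGF-beta1 alone. Its difference of 0.98 ± 0.20 (SE, adjusted p = 0.0139) was the largest among genes with a proper symbol. The call was lost in 3 of the 6 fits that left out an array. NDUFA5, a subunit of respiratory complex I, had levels of 6.17, 6.27 and 6.24 with both agents, against 5.19, 5.56 and 5.26 with TGF-beta1 alone. It was detected on 3 arrays of both agents and on 1 of TGF-beta1 alone, and its difference was 0.89 ± 0.16 (SE, adjusted p = 0.00514). The level with TGF-beta1 alone is near the limit of detection, so the size of this difference is uncertain.

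GDF6, a ligand of the bone morphogenetic protein (BMP) family, had log2 levels of 6.26, 6.13 and 5.91 with both agents, against 5.20, 5.05 and 5.40 with TGF-beta1 alone. It was detected on all 3 arrays with both agents and on none with TGF-beta1 alone. It was at least 1.53-fold higher with both agents (limma adjusted p = 0.000895), and the call held without each array. Its probe passed the filter on detection only through the 3 arrays where it was high, and the fits without an array kept that filter. Neither the call nor its holding is free of that choice. Of the 14 genes, 7 kept their call in every such fit, namely NDUFA5, GDF6, PTMA, TAF1D, CAPZA1, PLAGL1 and TMEM128. The other 7 lost it in at least 1 fit, where their highest adjusted p was 0.0575 to 0.212.

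**Figure D2:**
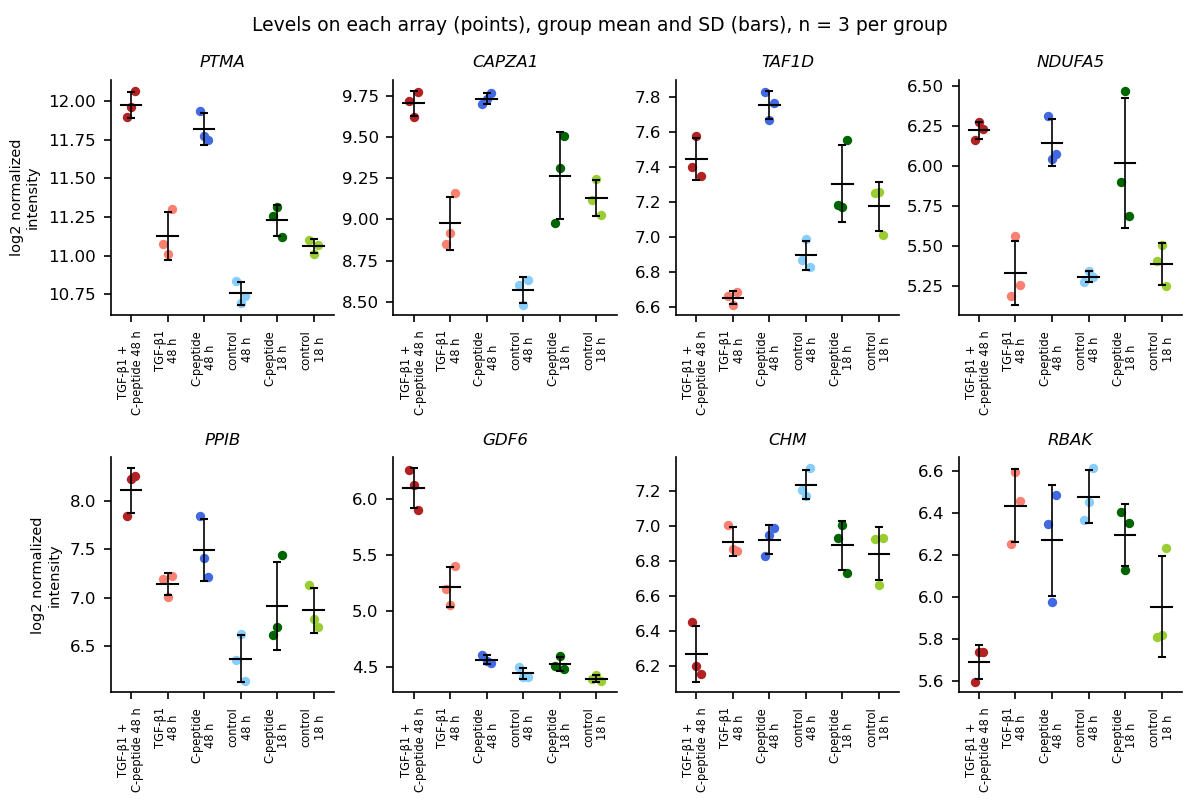
Log2 normalized intensity of 8 genes on each array (points), with the group mean (line) and SD (bar), n = 3 per group. PTMA, CAPZA1, TAF1D and NDUFA5 lie higher in both 48 h groups with C-peptide than in the 48 h groups without it, GDF6 is highest with both agents and was detected on no array of TGF-beta1 alone, and CHM and RBAK are lowest with both agents.

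Among the genes that fell, CHM was the only one whose call held without each of the 6 arrays. CHM encodes Rab escort protein 1, which presents Rab GTPases for lipid attachment. Its log2 level was 6.45, 6.20 and 6.15 with both agents, against 7.00, 6.87 and 6.86 with TGF-beta1 alone. Its log2 difference was -0.64 ± 0.11 (SE, adjusted p = 0.00444). RBAK, a zinc finger repressor that binds the retinoblastoma protein, had levels of 5.60, 5.74 and 5.74 with both agents and 6.25, 6.60 and 6.46 with TGF-beta1 alone, and it fell by 0.75 (SE 0.14, adjusted p = 0.0104). BICC1, an RNA-binding protein known for cystic kidneys when mutated, had levels of 8.07, 8.23 and 8.00 with both agents and 8.73, 8.74 and 8.60 with TGF-beta1 alone, and it fell by 0.59 (SE 0.11, adjusted p = 0.00968). The arrays of the groups lay apart in these 3 genes, as in all 268 called genes (14.6% of all genes tested had every array of both agents below those of TGF-beta1 alone).

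SRGAP1, a GTPase-activating protein of Slit and Robo signalling, had log2 levels of 10.00, 9.97 and 10.00 with both agents and 10.60, 10.64 and 10.63 with TGF-beta1 alone, and it fell by 0.63. TIAM1, an activator of Rac, fell by 0.58, EXPH5, an effector of Rab27, by 0.57, and SPTBN1, a beta spectrin that also serves as a SMAD adaptor in mouse, by 0.61. The other SPTBN1 probes differed by -0.40 and -0.18. OSBPL8, a lipid transfer protein of the ER, fell by 0.59, but its other probe differed by 0.19 in the other direction (unadjusted p = 0.0497).

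TAOK1, a kinase upstream of the Hippo and p38 pathways, had the largest negative difference, with log2 levels of 7.84, 7.61 and 7.88 with both agents and 8.73, 9.00 and 8.13 with TGF-beta1 alone. It fell by 0.84 (SE 0.21, adjusted p = 0.0362), and the spread among the TGF-beta1 arrays was wide. POLD1, the catalytic subunit of DNA polymerase delta, fell by 0.63, SAMD4B, an RNA-binding repressor, by 0.61, and NPAT, a coactivator of histone genes, by 0.56. RFX2, a transcription factor of ciliated cells, was not detected on any array with both agents and was at least 1.32-fold lower there (adjusted p = 0.0117). LATS2, the kinase that phosphorylates YAP in the Hippo pathway, fell by 0.66. Of the 14 genes with the largest negative differences, 13 lost their call in at least 1 fit without an array, with a highest adjusted p of 0.0633 to 0.241.

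Genes whose names in the array's table are not proper symbols were common among those that rose. Names of this kind (LOC numbers, clones and the like) made up 21.3% of genes tested and 55.6% of genes called higher, 104 of 187, against 14.8% of genes called lower, 12 of 81. RefSeq lists 328 of the genes tested as pseudogenes, of which 46 were called higher and 0 lower. Of all genes tested, 1.5% were called higher and 0.65% lower. The median log2 difference of the pseudogenes was 0.13, against -0.02 for the 10421 protein-coding genes. Of the 328, 242 were positive, or 73.8%, against 46.8% of all genes. Of the protein-coding genes 85 were called higher and 73 lower. Of the 33 calls that held without each array, 24 lacked a proper symbol.

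PPIAP80, a pseudogene of the cyclophilin A gene PPIA, had the largest difference of all genes. Its log2 level was 11.30, 11.31 and 11.24 with both agents, against 10.14, 10.22 and 10.39 with TGF-beta1 alone, a difference of 1.03 ± 0.16 (SE, adjusted p = 0.00298). FABP5P1, a pseudogene of a fatty acid binding protein gene, had levels of 8.31, 8.21 and 8.25 with both agents and 7.26, 7.32 and 7.45 with TGF-beta1 alone, a difference of 0.91 ± 0.13 (SE, adjusted p = 0.00144). RPL5P1, a pseudogene of the ribosomal protein gene RPL5, had levels of 9.88, 10.04 and 9.73 with both agents and 9.18, 8.94 and 9.03 with TGF-beta1 alone, a difference of 0.84 ± 0.11 (SE, adjusted p = 0.000772). As in every called gene, chosen on these same values, the groups did not overlap. Every array of both agents lay above those of TGF-beta1 alone in 14.1% of all genes tested.

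The genes these 3 pseudogenes were copied from were also measured. PPIA differed by 0.07, FABP5 by 0.25 and RPL5 by 0.10, and none of these was called. The PPIA probe had mean log2 levels of 7.39 with both agents and 7.32 with TGF-beta1 alone. The PPIAP80 probe was brighter, at 11.28 and 10.25, so how well the PPIA probe stands for PPIA is uncertain. FABP5 (8.48 and 8.23) and RPL5 (13.19 and 13.08) were brighter than their pseudogenes in both groups. Of the 40 pseudogenes called higher for which a gene of the same root symbol was tested, the gene itself was called higher for 2 pseudogenes (RPL23A among these genes) and lower for 0, and it was positive for 32. Those 40 were chosen for being called, so their differences are not set against those of the genes. Over all 228 pairs of a tested pseudogene and a tested gene of the same root, called or not, the median difference was 0.16 for the pseudogenes and 0.04 for the genes, and the pseudogene had the higher difference in 168 pairs. Several pairs share a gene and no test was made. A probe for a pseudogene can also bind transcripts of its near-identical parent, so which transcript these probes measured is uncertain.

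C-peptide without TGF-beta1 at 48 h, a comparison that shares no array with the main one, gave calls in many of the same genes, across the same 2 runs of array numbers. Of the 187 genes called higher, all 187 were positive there and 152 were called higher, which is 81.3% of the 187 and 31.9% of the 476 genes called higher there (3.82% of genes tested). Of the 81 genes called lower, 80 were negative there and 20 were called lower, which is 24.7% of the 81 and 10.7% of the 187 called lower there (1.5% of genes tested). The median difference there was 0.63 for the genes called higher and -0.29 for the genes called lower, against -0.04 for all genes. The share positive there was 43.2% over all genes.
PTMA, for example, had log2 levels of 11.94, 11.77 and 11.75 with C-peptide alone for 48 h, against 10.83, 10.69 and 10.74 in the 48 h controls, a difference of 1.07. CAPZA1 differed by 1.16, TAF1D by 0.86 and PPIB by 1.13 in that comparison, all 3 called. Of the 14 named genes with the largest positive differences, 13 were called with C-peptide alone (5.32% of all genes were called in either direction), all but GDF6, which differed there by 0.12. Of the 14 with the largest negative differences, 2 were called there, LATS2 and TIAM1.

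At 18 h, where the arrays of C-peptide and of the controls shared one run of array numbers, these genes did not move together in the same way. Of the 187 genes called higher at 48 h with both agents, 97 were positive and 90 negative after C-peptide for 18 h, with a median difference of 0.01, and 4 were called higher and 1 lower (1.15% of genes tested were called in each direction). Of the 81 genes called lower, 67 were positive at 18 h, with a median of 0.14, and 5 were called higher and 0 lower. The share positive at 18 h was 48.8% over all genes. NDUFA5, with a difference of 0.63 (adjusted p = 0.042), was the only one of these 28 named genes called at 18 h, where 2.29% of all genes were called in either direction. The 18 h calls were unstable: 286 genes were called in all, 0 when only the 18 h groups were fitted, 0 without replicate 1 and 1 without replicate 2 of the 18 h controls, 1780 without replicate 3 of them, and 1327 and 79 without replicates 1 and 3 of C-peptide for 18 h. Time of exposure and run of array numbers both set the 18 h comparison apart from the 48 h ones and cannot be told apart here.

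The control arrays, which got no agent, also differed in these genes. Between the 48 h and the 18 h controls, 180 of the 187 genes called higher had a lower mean at 48 h (median -0.25). Of the 81 genes called lower, 77 had a higher mean at 48 h (median 0.25). Over all genes the median was 0.00, with 6254 higher and 6209 lower at 48 h. These controls differ both in time and in run of array numbers, which cannot be told apart, and the cause was not tested. As means of deviations from the 18-array mean, the 187 genes lay at 0.37 to 0.42 on the arrays of both agents, -0.22 to -0.11 with TGF-beta1 alone, 0.18 to 0.37 with C-peptide alone for 48 h and -0.41 to -0.27 in the 48 h controls. On the same scale they lay at -0.11 to -0.04 with C-peptide for 18 h and -0.18 to 0.02 in the 18 h controls. The means of the 18 h groups, -0.07 with C-peptide and -0.08 in controls, lay between those of the 48 h groups with and without C-peptide.

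**Figure D3:**
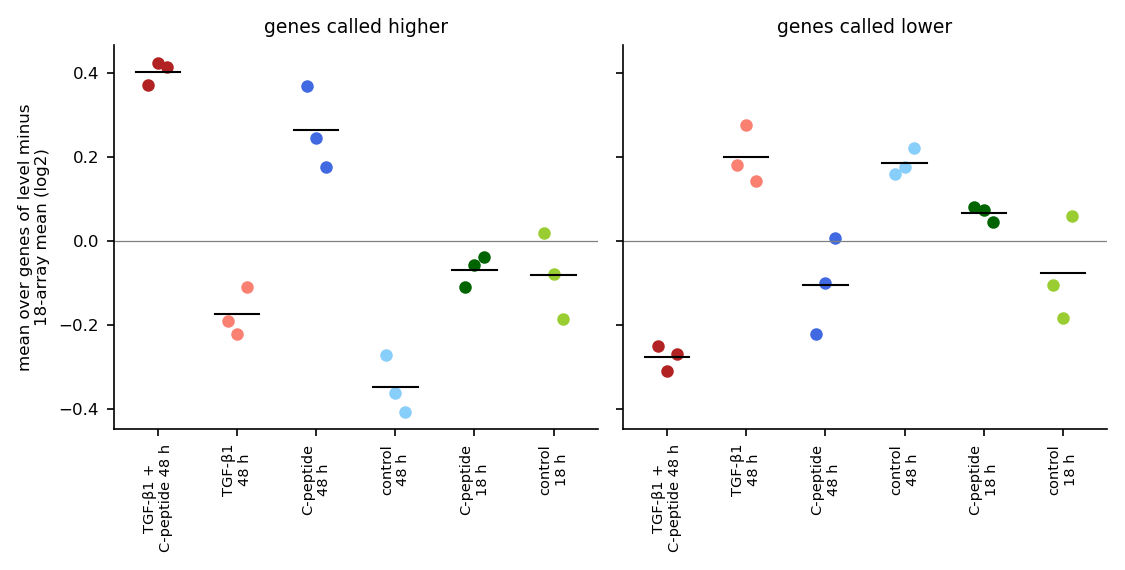
Each point is an array; the y axis is the mean, over the 187 genes called higher (left) or the 81 called lower (right), of the log2 level minus the mean of all 18 arrays, and lines are group means. The genes were chosen on the first 2 groups, so their separation there is given; the means of the 18 h groups lie between those of the 48 h groups with C-peptide and those without it.

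Whether the change with C-peptide differed when TGF-beta1 was present was tested directly, as the interaction of the agents at 48 h. This difference of differences sets each pair of groups within its run of array numbers, so a shift common to a run cancels in it. In limma 0 of 12464 genes were called, with 387 at an unadjusted p under 0.05. Of the genes called in the main comparison, 12 of 187 and 14 of 81 had an unadjusted p under 0.05. They were chosen on the main difference, which is itself a part of the interaction. These counts are therefore not set against the 387 of all genes. The lowest adjusted p among all these called genes, rounded, was 0.999. GDF6 had an interaction of 0.76 (unadjusted p = 0.000215). Its level was 4.61, 4.55 and 4.54 with C-peptide alone for 48 h and 4.51, 4.42 and 4.41 in the 48 h controls, near the floor of detection. Other interactions were smaller, such as -0.54 for RBAK (unadjusted p = 0.0152), -0.43 for CAPZA1 (unadjusted p = 0.0123) and -0.29 for SRSF1, a splicing factor (unadjusted p = 0.00734).

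The genes for which TGF-beta1 and C-peptide are studied in tubule cells were not called. Of 18 genes listed, 14 were tested and 0 were called, against 2.15% of all genes, with the lowest adjusted p at 0.304 for COL4A1. CDH1 had log2 levels of 5.26, 5.38 and 5.15 with both agents and 5.70, 5.36 and 5.25 with TGF-beta1 alone, which overlapped, against 8.63, 8.26 and 8.60 in the 48 h controls. It was detected on 0 of the arrays with both agents and on 1 with TGF-beta1 alone, so its difference of -0.17 (95% interval -0.55 to 0.20) is close to the floor of detection. VIM (vimentin, a mesenchymal filament) had levels of 14.35, 14.38 and 14.51 with both agents and 14.38, 14.43 and 14.50 with TGF-beta1 alone, a difference of -0.02 (95% interval -0.16 to 0.11). That sign turned with median scaling over detected probes, where VIM differed by 0.25 (adjusted p = 0.141).

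ACTA2 (smooth muscle actin) had log2 levels of 7.09, 6.83 and 6.97 with both agents and 7.08, 6.87 and 6.88 with TGF-beta1 alone, a difference of 0.02 (95% interval -0.21 to 0.24), or -0.26 with median scaling. COL1A1, a fibrillar collagen, differed by 0.07 (95% interval -0.16 to 0.31; -0.18 with median scaling), and SMAD7, the inhibitory SMAD of the feedback loop, by -0.07 (95% interval -0.40 to 0.25). The intervals of COL1A1 and SMAD7 exclude differences of the size that separated TGF-beta1 from the controls, which was 2.32 for COL1A1 and 1.80 for SMAD7. With both agents against the same controls, COL1A1 differed by 2.40 and SMAD7 by 1.73.

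FN1, fibronectin, had log2 levels of 8.26, 8.45 and 8.14 with both agents, against 8.71, 8.81 and 8.76 with TGF-beta1 alone and 7.93, 7.87 and 8.17 in the 48 h controls. The arrays of both agents lay below those of TGF-beta1 alone with no overlap, which held for 3 of the 14 study genes tested and 14.6% of all genes. Over the 18 arrays the FN1 difference of -0.48 had a 95% interval of -1.09 to 0.14 and was not called (limma adjusted p = 0.406). It was called when only the arrays of the 2 groups were fitted (adjusted p = 0.00771). MET, the receptor of hepatocyte growth factor, differed by 0.12 (-0.13 with median scaling), CRABP2, a retinoic acid carrier, by 0.15 (-0.11 with median scaling), and TGFBR2 by -0.06. CCN2, a secreted matrix protein, differed by -0.15 and COL4A1 by -0.19, and both turned positive with median scaling over detected probes, at 0.07 and 0.10. The transcription factor SNAI1 differed by -0.07 (0.03 with that scaling) and SNAI2 by -0.15. HGF, RARB, TGFB1 and TGFBR1 did not pass the filter on detection and were not tested.

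**Figure D4:**
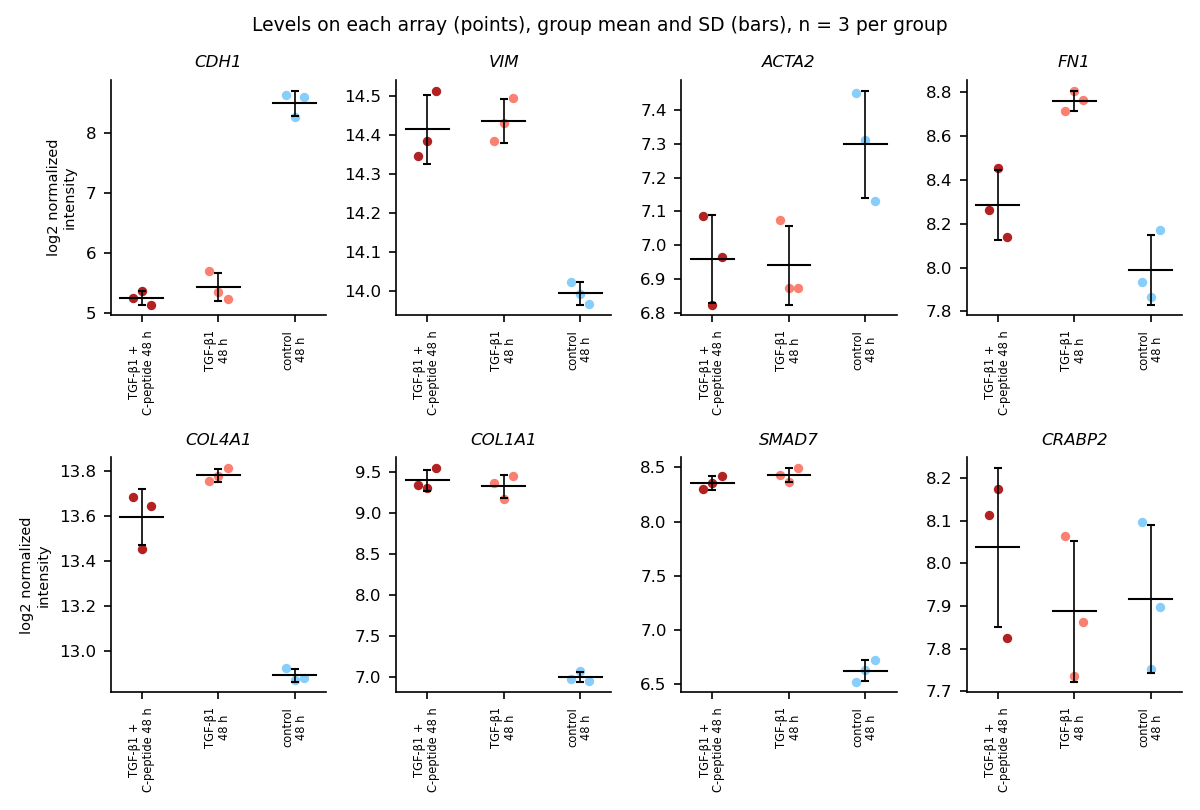
Log2 normalized intensity of 8 of the study's genes on each array (points), with the group mean (line) and SD (bar), n = 3 per group, for both agents, TGF-beta1 alone and the 48 h controls; each panel has its own axis. Points of both agents and of TGF-beta1 alone overlap for CDH1, VIM, ACTA2, COL1A1, SMAD7 and CRABP2, and do not overlap for FN1 and COL4A1. Every array of both agents lay below those of TGF-beta1 alone in 14.6% of all genes.

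Most respiratory chain genes had small positive differences, and few were called. Of 63 measured subunits, 2 were called higher, NDUFA5 and COX7B (0.35, a subunit of cytochrome c oxidase), and 0 lower, a count near the 1.5% of all genes called higher, with a median log2 difference of 0.11 against -0.01 over all genes. Of the 63, 55 were positive, or 87.3%, against 46.8% of all genes, and in 24 all 3 arrays of both agents lay above all 3 of TGF-beta1 alone, which held for 14.1% of all genes. The members closest to a call were NDUFAB1 (0.30, adjusted p = 0.0557) and NDUFB4 (0.38, adjusted p = 0.0691). With median scaling the median was 0.01, against -0.24 for all genes. Under that scaling 33 of the 63 were positive, against 1532 of all 12464 genes. Without each array the list's median was 0.09 to 0.13. Of 76 cytosolic ribosomal protein genes, 2 were called higher, RPL7 and RPL23A at 0.42 each, and 0 lower, with a median of 0.04. Near-identical copies of these 2 genes make their probes uncertain.

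Among DNA replication genes, 4 of 42 measured were called lower and 0 higher, against 0.65% and 1.5% of all genes. The list's median was -0.12, and 33 of the 42 were negative, or 78.6%, against 53.2% of all genes. With median scaling over detected probes the median was -0.04, against 0.03 for all genes, and 17 of the 42 were positive. Beside POLD1, the genes that fell were MCM4, a subunit of the replicative helicase, POLA1, of the polymerase that makes primers, and RRM2, of ribonucleotide reductase. All 4 calls were lost in at least 1 fit without an array. RRM2 had log2 levels of 9.80, 9.69 and 9.60 with both agents, against 10.13, 10.21 and 10.08 with TGF-beta1 alone and 8.86, 9.04 and 9.03 in the 48 h controls. It fell by 0.44 with both agents relative to TGF-beta1 alone. MCM4 fell by 0.43, but its other probe differed by -0.11, and POLA1 fell by 0.43, but its other probe differed by 0.19. Of 37 genes of mitosis, 0 were called, with a median of -0.09 that was positive with median scaling over detected probes. CDKN1B, the cell cycle inhibitor p27, rose by 0.56 on the probe used and differed by 0.01 on the other.

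Of 23 measured genes of the insulin and IGF pathway, 22 were negative, or 95.7%, against 53.2% of all genes, with a median of -0.17. In this list 1 was called lower and 0 higher, against 0.65% and 1.5% of all genes. AKT1, the kinase downstream of insulin receptors, had log2 levels of 10.00, 9.82 and 10.19 with both agents and 10.40, 10.52 and 10.36 with TGF-beta1 alone, and it fell by 0.42 (SE 0.11, adjusted p = 0.0407). Its other probe differed by -0.23, and its call was lost in 5 of 6 fits without an array, with a highest adjusted p of 0.225. IGFBP3, a carrier of IGF, differed by -0.39 and FOXO3, a transcription factor that AKT restrains, by -0.34, neither called. The median was -0.39 with median scaling, where that of all genes was itself -0.24. It was -0.12 with median scaling over detected probes, against 0.03 for all genes.

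Matrix genes and TGF-beta targets had negative medians with few calls. Of 36 matrix genes, 1 was called lower and 0 higher, against 0.65% and 1.5% of all genes, with a median of -0.15, and in 16 all arrays of both agents lay below those of TGF-beta1 alone, which held for 14.6% of all genes. COL8A1, a short-chain collagen, had log2 levels of 11.92, 11.78 and 11.70 with both agents, against 12.51, 12.40 and 12.09 with TGF-beta1 alone and 13.28, 13.20 and 13.21 in the 48 h controls. It fell by 0.53 with both agents, and its other probes differed by -0.42 and -0.17. Of 24 TGF-beta targets and feedback genes, 0 were called, with a median of -0.13. The largest differences were 0.41 for ID3 and 0.36 for ID2, inhibitors of DNA binding that BMP signals induce, and -0.41 for THBS1, a matrix protein that activates latent TGF-beta. With median scaling the medians were -0.34 for matrix genes and -0.30 for TGF-beta targets, where the median of all genes was itself -0.24. With median scaling over detected probes they were -0.06 and -0.03, against 0.03 for all genes. Of the epithelial junction genes 0 of 25 were called (median -0.11), of the mesenchymal and contractile genes 0 of 23 (median -0.07) and of the matrix proteases 0 of 19 (median -0.08). The last 2 medians were positive with median scaling over detected probes.

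In the Hippo pathway, 2 of 20 genes were called lower, TAOK1 and LATS2, and 0 higher, with a median of -0.10, against 0.65% of all genes called lower. Both calls were lost in at least 1 fit without an array. LATS2 had log2 levels of 6.52, 6.47 and 6.73 with both agents, against 7.43, 7.20 and 7.05 with TGF-beta1 alone. LATS1, the second LATS kinase, differed by -0.35 and was not called. Among 22 genes of BMP and GDF signalling, GDF6 was the 1 called higher and 0 were called lower, and INHBE, an activin subunit, differed by 0.57 (adjusted p = 0.0724). Among 8 genes of the sodium pump, 0 were called. FXYD2, the pump's gamma subunit in kidney, differed by 0.51 (adjusted p = 0.123).

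The lists of protein folding and RNA processing held 2 or 3 calls each, where 2.15% of all genes were called. Of 38 ER folding genes, PPIB and SUCO, a membrane protein of the ER, were called higher (SUCO by 0.64, and by 0.40 on its other probe). SEC61A1, the channel of the ER translocon, was called lower by 0.44. Of 23 heat shock genes, the co-chaperone DNAJB4 rose by 0.48, but its other probe differed by 0.11. The constitutive chaperone HSPA8 fell by 0.35, and both HSPA8 probes were negative. HSPA8 had log2 levels of 12.77, 12.57 and 12.64 with both agents, against 13.04, 13.03 and 12.97 with TGF-beta1 alone. Of 39 splicing genes, SRSF11 rose by 0.58, and SF3B2 and SRSF1 fell by 0.34 and 0.31. KEAP1, which restrains NRF2, fell by 0.38, 1 of 26 genes of the NRF2 and metallothionein list. The other KEAP1 probe differed by -0.20. EIF1AX, a translation initiation factor, rose by 0.37 and kept its call without each array.

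The signalling and stress lists held no call, which in lists of this size is near the 2.15% of all genes. The counts were 0 of 32 for MAP kinases and immediate early genes, 0 of 23 for NF-kappaB targets, 0 of 24 for interferon-stimulated genes, 0 of 19 for kidney injury, 0 of 19 for HGF and MET, 0 of 17 for retinoic acid and 0 of 12 for PPAR targets. The same held for 0 of 28 cholesterol genes, 0 of 22 ATF4 targets, 0 of 28 hypoxia and glycolysis genes, 0 of 32 proteasome genes, 0 of 13 genes of MHC class I and 0 of 14 housekeeping genes. The largest differences in these lists belonged to CYP51A1, of sterol synthesis (0.43), HLA-G (0.44), VLDLR, a lipoprotein receptor (-0.41), and PFKL, a glycolytic enzyme (-0.40), none called.

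**Figure D5:**
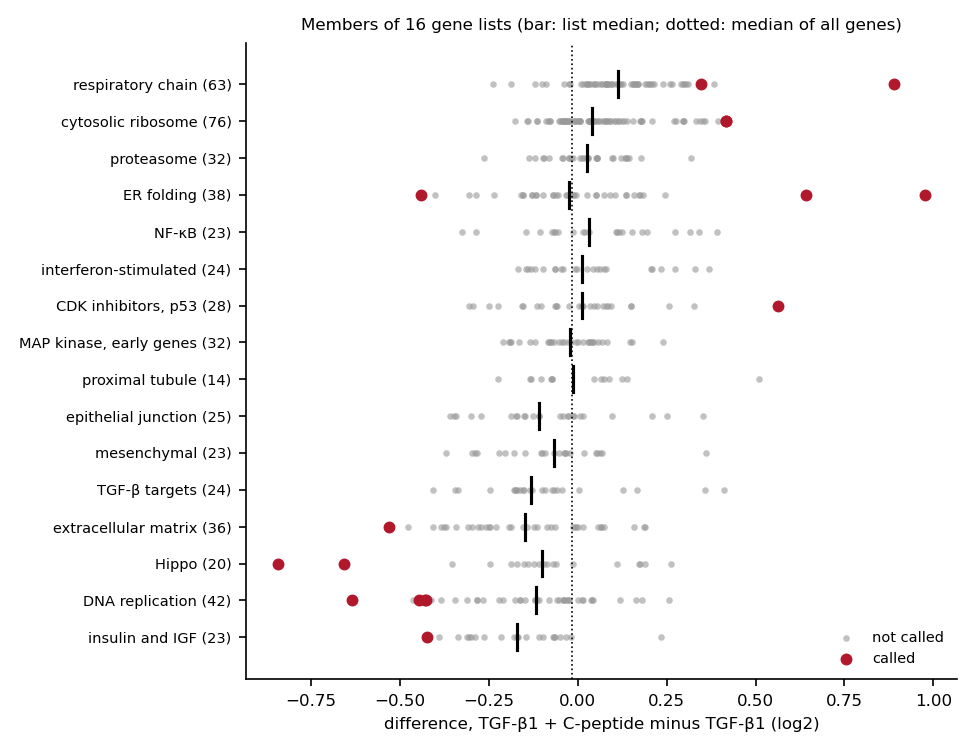
Each point is a gene of 1 of 16 lists, with the number measured in brackets; the x axis is the log2 difference, both agents minus TGF-beta1 alone, red points were called, bars are list medians and the dotted line is the median of all genes. The respiratory chain median is 0.11 and the insulin and IGF median -0.17, with all genes at -0.01.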

How the data were processed

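RNA of 18 flasks was hybridised to Illumina HumanWG-6 arrays with 48803 probes, and 6 arrays form the comparison. Per the file headers, the authors' deposited table holds bead intensity from GenomeStudio 1.1.1, without normalization, and detection values as a fraction (1 minus the detection p). A second deposited table holds normalized intensity. Here, neqc (limma 3.58.1, R 4.3.3) corrected the background, added an offset of 16, applied quantile normalization and took log2. Each gene was read from its brightest probe by mean, among probes detected at p under 0.01 on at least 3 arrays, for 12464 genes. Names were updated through RefSeq; a name counts as a proper symbol by its form in the array table, so LOC numbers do not even where RefSeq names a pseudogene. limma fitted 6 group means to all 18 arrays (eBayes with an intensity trend, 12 residual degrees of freedom), two-sided, with Benjamini-Hochberg adjustment over all genes. The 3 arrays a group limit the precision; p-values measure the spread between flasks of one line. Named genes were the 14 with a proper symbol that were called with the largest positive and the 14 with the largest negative differences, called list members, the study's own genes, and, in lists without a call, up to 3 members with the largest differences; others were chosen after their values were seen. The members, lists and rule were chosen with earlier results of these data known. The code was tested on simulated data. Alternatives are in the closing section. Some genes of the lists are not reported here.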

Additional observations from a re-analysis of the deposited data

How the results depend on the processing

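The counts of genes called for both agents against TGF-beta1 alone (268, of which 187 higher and 81 lower) moved with the processing, and the cause was not tested unless the setting states it. They were 2995, 73 and 2922 with median scaling, 501 and 408 (93 lower) with median scaling over detected probes, 516, 351 and 165 with every probe kept, 855, 477 and 378 with only the groups compared, and 1436, 697 and 739 with array weights. Without a filter on detection, which tests more genes, 165 were called (37 lower), and among genes with a proper symbol only, 95 (60 higher, 35 lower). Without each array the 3 counts were 52 to 172, 46 to 135 and 2 to 37. The authors' normalized table (265), probes detected on all 6 arrays (255) and no intensity trend (249) stayed within 1.5 times, and 80 genes were called the same way under the 8 planned settings that keep 1 probe a gene and all arrays. Of the 268 calls, 33 held in all 6 fits without an array. The replicate block gave 276, with 248 of the 268 shared. Same-numbered arrays of the 2 groups correlated at 0.27, -0.10 and 0.11 in their deviations, and not every array correlated best with its own number, so the numbers were not taken as pairs. The interaction stayed at 0 called in all 23 settings, with 262 to 2063 genes at an unadjusted p under 0.05. C-peptide against control at 48 h (663) gave 2333 with median scaling, 1117 with every probe, 1307 with own groups, 3144 with array weights, 330 with proper symbols and 196 to 1008 without each array. At 18 h (286) it gave 513 with median scaling, 17 without a filter, 1125 with array weights, 547 with the replicate block, 0 with own groups (1625 at an unadjusted p under 0.05) and 0 to 1780 without each array. The 46 called genes followed through each setting (the 28 with the largest differences, 17 other list members and EIF1AX) kept their direction wherever they were tested. Leaving out or weighting arrays could not turn it, as the groups do not overlap in any called gene. Only settings that change the values, such as the scalings and the authors' table, could have. Of the 17 other list members, 0 kept their call in every fit without an array. Signs turned, with no call, for ACTA2 (-0.26), MET (-0.13), CRABP2 (-0.11) and COL1A1 (-0.18) with median scaling, and for VIM (0.25), CCN2 (0.074), COL4A1 (0.105) and SNAI1 (0.033) with median scaling over detected probes. Without each array the differences were -0.0718 to 0.0123 for VIM, -0.0455 to 0.0847 for ACTA2, -0.0039 to 0.136 for COL1A1 and -0.162 to 0.0203 for SNAI1. GDF6, RANGRF, GPN3, NDUFA5, RFX2 and CDH1 lie near the limit of detection. With 3 arrays a group the median standard error was 0.12 on the log2 scale. Median scaling over detected probes and the fit on proper symbols were chosen after seeing the data.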

Other observations

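Some genes that differed between both agents and TGF-beta1 alone had also been moved by TGF-beta1 itself. These comparisons share the arrays of TGF-beta1 alone, so the values stand side by side only. COL8A1 was lower by a log2 difference of -0.53 with both agents than with TGF-beta1 alone, and differed by -0.89 between TGF-beta1 alone and the 48 h controls. BICC1 differed by -0.59 and -0.94 in the same comparisons. RRM2 differed by -0.44 and 1.16, HSPA8 by -0.35 and 0.32, and SRSF1 by -0.31 and 0.39. PTMA differed by 0.85 and 0.37, and CAPZA1 by 0.73 and 0.40.

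Among abundant transcripts, 3 genes that were called are named after their values were seen. LGALS3, a galectin, had log2 levels of 11.08, 11.04 and 11.24 with both agents, against 10.33, 10.56 and 10.69 with TGF-beta1 alone. EEF2, the translation elongation factor, had levels of 12.34, 12.33 and 12.45 with both agents, against 12.88, 12.86 and 12.78 with TGF-beta1 alone, and TMBIM6, a membrane protein of the ER, 12.48, 12.25 and 12.56 with both agents, against 12.84, 12.97 and 12.74 with TGF-beta1 alone. The groups did not overlap in these genes, nor in any of the 268 called, which were chosen on these same values. Of all genes tested, 14.1% had every array of both agents above those of TGF-beta1 alone, and 14.6% below.

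Where a called gene had other detected probes, these mostly had the same sign. It was so for 25 of 33 other probes of genes called higher (median 0.16, against 0.52 on the probe used) and for 28 of 40 other probes of genes called lower (median -0.16, against -0.43 on the probe used). In each direction 3 other probes had the opposite sign at an unadjusted p under 0.05. The probes used belong to genes chosen for being called on them, so the medians stand side by side only.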
